A study of Mus musculus with 15 samples.

Results

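The members of this comparison were 6 of the 15 RNA-seq libraries of the series: 3 bulk tumors labelled sh-B7-H3 (1) and 3 bulk tumors labelled sh-NC. They were taken by their labels, and every gene of the expression table was followed, apart from rows whose symbols had been turned into dates. All 6 tumors grew from 105K cells, a mouse renal tumor cell line that lacks Tsc2. The cells had been transduced with a short hairpin RNA (shRNA) against B7-H3 or with a non-targeting control shRNA, selected in puromycin, and kept as mixed pools, not as single clones. They were injected with matrigel under the skin of the flanks of wild-type C57BL/6J mice, which the study's methods give as male and 6 weeks old. Tsc2 loss and the hairpin were therefore carried by the tumor cells alone, and the host had its own intact immune system. The tumor was not sorted before RNA extraction, so each library mixed tumor cells with whatever host cells the dissected tissue held. In such data, fewer cells of a type and less RNA per cell cannot be told apart. The other 9 libraries came from tumor cells isolated from such tumors, and 6 of them, sh-NC and sh-B7-H3 (1) with 3 libraries each, were used to set the bulk effect beside the effect in the isolated tumor cells.

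B7-H3, encoded by Cd276, is a surface protein of the B7 family, whose members raise or dampen T cell responses when they meet their partners on lymphocytes. It is found on many solid tumors and on part of the tumor stroma and vessels, and it is studied as an immune checkpoint. TSC2 is part of the complex that restrains mTORC1, the kinase complex that drives growth and anabolic metabolism, so Tsc2-deficient cells keep mTORC1 active. Interferon-γ (IFN-γ), a cytokine of activated T cells and NK cells, induces genes for antigen presentation, among them MHC class II through the transactivator CIITA. A bulk tumor shows such changes together with the makeup of the stroma, which sorted tumor cells do not.

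Values were FPKM (fragments per kilobase of transcript, scaled to the library's mapped reads), and the summed FPKM ran from 587645 to 1544002 in the sh-NC tumors and from 454656 to 1243908 in the tumors labelled sh-B7-H3 (1). A single microRNA gene, MIR6236, took 30.0% to 79.7% of that sum in the first group and 17.2% to 74.4% in the second, so the values were rescaled by the median ratio over all genes with 1 FPKM or more in every library. All levels below are these scaled FPKM values, given in the order of replicates 1, 2 and 3, and where 3 values stand against 3 the sh-NC libraries come first. Fold changes are on the scale of log2(scaled FPKM + 1) and understate the change of low genes. Replicate 2 labelled sh-B7-H3 (1) stood apart. Over the 11800 genes tested it correlated more closely with sh-NC replicates 1, 2 and 3 (Pearson r = 0.937, 0.955 and 0.950, across genes) than with its own group (0.933 and 0.904). It was also the library of its group with the most MIR6236. Where leaving it out changed the count of called genes of a list, that count is given as well.

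Of the 11800 genes that reached 1 scaled FPKM in at least 3 of the 6 bulk libraries, 2520 (21.4%) differed between the groups at an adjusted p under 0.05 (limma, Benjamini-Hochberg). Of these, 1515 (12.8%) were higher and 1005 (8.52%) lower in the tumors labelled sh-B7-H3 (1), and 606 differed by more than 1 on the log2 scale, 475 higher and 131 lower. The median log2 fold change of all genes was 0.02. The shares of 12.8% and 8.52% are those to set beside the list counts below. The values of the 2 groups did not overlap in 5250 of the 11800 genes, 2884 higher and 2366 lower. That held for every called gene, so a lack of overlap adds nothing to a call. Without replicate 2 labelled sh-B7-H3 (1), 1927 of 11490 genes (16.8%) were higher and 1866 (16.2%) lower, and 2234 of the 2520 genes were called again. Left out in turn, the other libraries gave smaller counts, with 1362, 1053 and 782 genes without sh-NC replicates 1, 2 and 3 and 546 and 1658 without replicates 1 and 3 labelled sh-B7-H3 (1). Quantile normalization in place of the median ratio moved the split of the calls, to 1045 higher and 1239 lower.

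The targeted gene was examined first. CD276 was at 20.8, 23.2 and 23.5 in the sh-NC tumors and at 22.3, 17.8 and 24.4 in the tumors labelled sh-B7-H3 (1). The ranges overlapped, and replicate 3 of the knockdown label held the highest of the 6 values. The means were 22.5 ± 1.52 and 21.5 ± 3.36 (SD, n = 3 each), the log2 fold change was −0.07 ± 0.13 (SE, adjusted p = 0.709), and a two-sided exact permutation test of the levels gave p = 0.7, where 3 against 3 tumors cannot go below 0.1. In the isolated tumor cells of the same labels CD276 was at 34, 20.004 and 17.3 for sh-NC and at 7.29, 14 and 11.5 for sh-B7-H3 (1), a log2 fold change of −1.04 (adjusted p = 0.0547). The difference between the bulk and the sorted effect, 0.97 ± 0.35 (SE), had an adjusted p of 0.276. A reduction of CD276 mRNA was thus not detectable in the bulk libraries, and every direction given below rests on their labels. How much of the bulk CD276 signal came from host cells was not tested. Among the other genes of the B7 and nectin families, VTCN1 (B7-H4, an inhibitory B7 protein) rose from 1.98, 1.34 and 0.946 to 8.7, 4.96 and 6.32 and NECTIN2, a ligand of TIGIT and CD226, rose from 11, 11.4 and 11.3 to 20.7, 18.8 and 18.5. PVR, another ligand of those receptors, fell from 24.6, 21.4 and 27 to 16, 17.2 and 17. These were the 3 called members of 11 tested (18.2% higher and 9.09% lower, against 12.8% and 8.52% of all genes). The fall of PVR was not called without sh-NC replicate 1, sh-NC replicate 3 or labelled replicate 1, and without labelled replicate 3 there were 5 rises and 1 fall.

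Most of the epithelial genes examined were higher in the tumors labelled sh-B7-H3 (1). Of 28 listed epithelial genes 26 were tested, 19 rose and none fell, where 12.8% of all genes tested rose, and the median log2 fold change was 1.42 against 0.02 for all genes. No control reached the filter for 1 of the 19, OVOL2. Without replicate 2 labelled sh-B7-H3 (1), 20 of 25 rose. LCN2, a secreted iron-siderophore carrier of injured tubule epithelium, was at 393, 338 and 215 in the sh-NC tumors and at 2699, 1555 and 3061 in the tumors labelled sh-B7-H3 (1) (log2 fold change 2.93 ± 0.32, SE, adjusted p = 0.00308). EPCAM, an adhesion protein of epithelial membranes, was at 25.8, 25 and 12.8 against 141, 90.04 and 182 (log2 fold change 2.65 ± 0.33, SE, adjusted p = 0.00457). In both genes all 3 labelled tumors lay above all 3 controls, and replicate 2 was the lowest of its group. ST14, the membrane protease matriptase, rose from 7.37, 5.52 and 3.15 to 34.4, 25.8 and 31.3, and RAB25, a small GTPase of apical recycling, rose from 7.01, 6.17 and 3.5 to 32.8, 25.9 and 32.6. ELF3, an epithelial transcription factor, was very even within groups, at 15.9, 13.8 and 14.1 against 69.9, 55.5 and 58.7 (log2 fold change 1.99 ± 0.11, SE, adjusted p = 0.00195). Other members did not pass. KRT8, a keratin of simple epithelium, was at 227, 287 and 313 against 253, 242 and 263, and CDH1, which encodes E-cadherin, was at 202, 173 and 183 against 178, 142 and 193 (log2 fold change −0.13 ± 0.14, SE, adjusted p = 0.518).

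The 10 genes with the smallest adjusted p values of the whole comparison each reached 0.00195, the lowest value of the fit, and all 10 rose. FXYD3, a regulator of the sodium pump, was at 11.9, 9.59 and 6.62 against 80.4, 66.6 and 65, and TJP3, the tight junction protein ZO-3, was at 3.3, 3.61 and 2.64 against 18.9, 14.2 and 18.4. SULT2B1, a sulfotransferase of sterols, was at 2.12, 2.18 and 2.18 against 9.58, 8.94 and 8.92, so that the values were closely spaced within each group. The others were ELF3, LOXL2, STARD10, TMEM40, SMAGP, FAM117A and TMEM54, with log2 fold changes between 1.53 for SMAGP and 2.01 for LOXL2. Among the genes with the largest rises, MUC1, a membrane mucin, was at 52.7, 39.7 and 24.5 against 350.2, 173 and 419.6 (log2 fold change 2.95 ± 0.38, SE, adjusted p = 0.00489). MUC20, a further membrane mucin, was at 9.88, 7.76 and 4.23 against 95.3, 40.9 and 132. PIGR, the receptor that carries polymeric immunoglobulin across epithelium, was at 28.9, 24.4 and 11.7 against 298, 151 and 243 (log2 fold change 3.39 ± 0.37, SE, adjusted p = 0.00308), and ATP10B, a phospholipid flippase, was at 4.63, 4.52 and 1.997 against 44.9, 20.6 and 49.7. In these 4 genes the lowest labelled tumor, replicate 2, still lay above the highest control. LTF, the iron-binding protein lactoferrin of secretions and neutrophil granules, rose from 62.7, 37.4 and 38.1 to 385, 243 and 327 (log2 fold change 2.78 ± 0.25, SE, adjusted p = 0.00226).

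**Figure D1:**
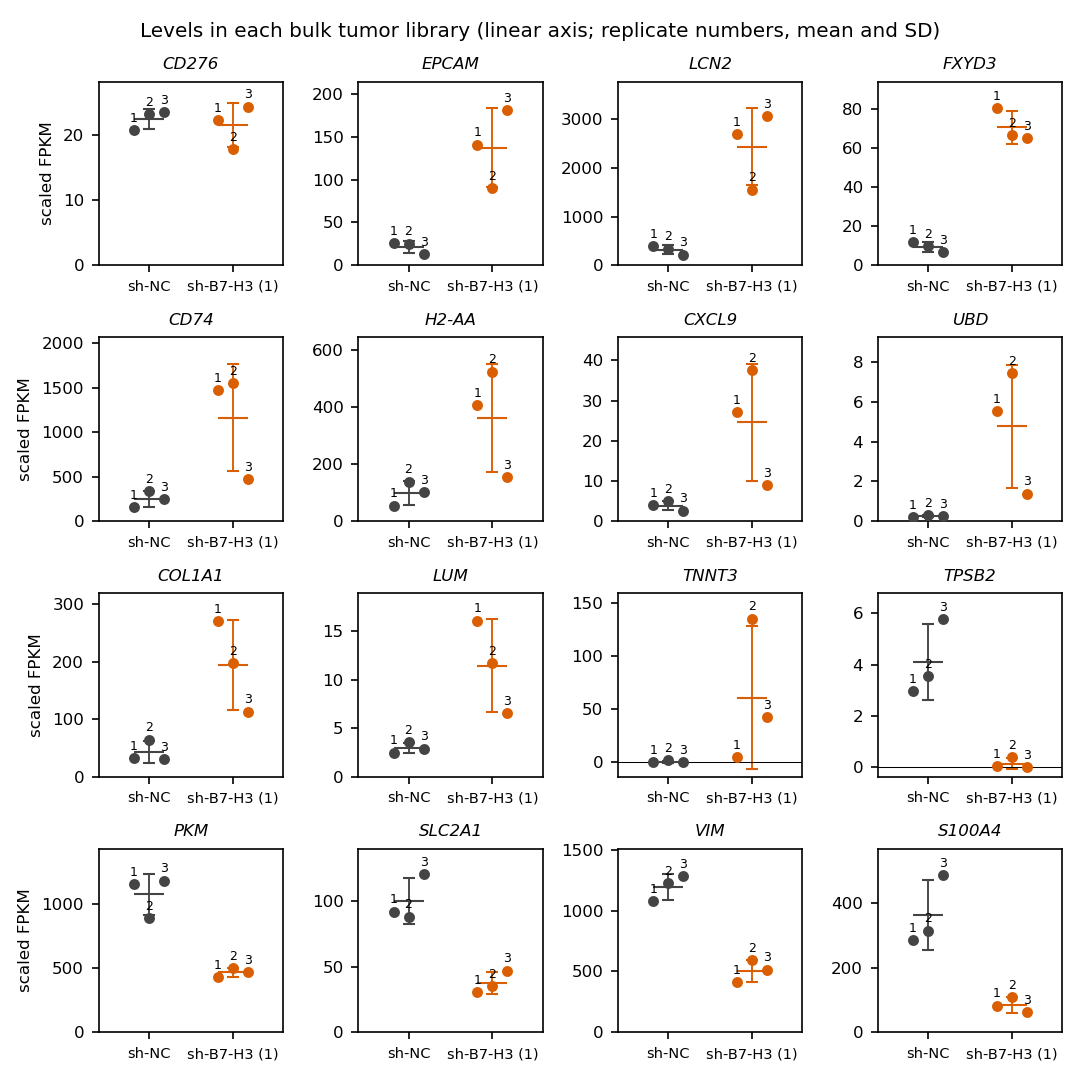
Scaled FPKM of 16 genes in the 3 sh-NC and the 3 labelled sh-B7-H3 (1) bulk tumors, on linear axes, one panel per gene; points are libraries marked with their replicate number, and bars are the mean ± SD of 3. CD276 overlaps between the groups, EPCAM, LCN2 and FXYD3 are separated upward, PKM, SLC2A1, VIM and S100A4 downward, and replicate 3 of the labelled tumors is the lowest of its group for CD74, CXCL9 and UBD.

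Of 14 tested genes of the mesenchymal transition list, 3 fell and 3 rose (21.4% each way, against 8.52% and 12.8% of all genes). The list thus had no common direction (median log2 fold change 0.06), and without labelled replicate 2 the counts were 4 and 2 of 13. VIM, the intermediate filament vimentin, was at 1075, 1226 and 1282 in the sh-NC tumors and 413, 591 and 516 in the tumors labelled sh-B7-H3 (1) (log2 fold change −1.25 ± 0.16, SE, adjusted p = 0.00504). S100A4, a calcium-binding protein of motile cells, was at 285, 314 and 485 against 82.6, 109.7 and 62.6 (log2 fold change −2.07 ± 0.26, SE, adjusted p = 0.00458). FN1, fibronectin, was at 1406, 1352 and 1216 against 889, 980.5 and 706. For these abundant genes the labelled tumors were all below the controls. The 3 members that rose, CDH11 (a mesenchymal cadherin), TWIST1 and PRRX1 (transcription factors of mesenchyme), were low, with CDH11 at 0.825, 1.8 and 1.19 against 12.5, 7.49 and 6.42, and TWIST1 was tested through the labelled tumors alone. The genes with the largest falls included AKR1B7, an aldo-keto reductase, at 20.2, 16.7 and 15.2 against 1.63, 3.28 and 2.37 (log2 fold change −2.44 ± 0.19, SE, adjusted p = 0.00212). GSTA1 and GSTA2, glutathione transferases, and the gene model GM3776 fell as well, with GSTA1 at 39.8, 14.5 and 11.5 against 3.53, 3.75 and 2.91. These 3 have near-identical sequences, so that reads may have been divided among them, and sh-NC replicate 1 was far above its group in each. SCG5, a secretory granule chaperone, fell from 10.4, 6.67 and 13 to 1.28, 1.3 and 0.764. MIR196A-1, a microRNA gene at 31.8, 228 and 175 in the controls, was listed at 0 in all 3 labelled tumors, and no fold change is given for it.

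MHC class II genes, which present antigen to CD4+ T cells, were higher in the tumors labelled sh-B7-H3 (1). Of 11 listed class II genes 8 were tested and 6 rose, against 12.8% of all genes tested, with a median log2 fold change of 1.52. CD74, the invariant chain that guides class II molecules to the endosome, was at 152, 336 and 246 in the sh-NC tumors and at 1470.3, 1552 and 471 in the tumors labelled sh-B7-H3 (1) (log2 fold change 2.14 ± 0.50, SE, adjusted p = 0.0286). H2-AA and H2-AB1, the chains of the classical molecule I-A, were at 53.1, 138 and 102 against 408, 525 and 153 and at 38.8, 105 and 75.9 against 349.6, 387 and 144. CIITA, the class II transactivator, was at 0.387, 0.727 and 0.45 against 3.37, 3.61 and 1.1 and was tested through the labelled tumors alone, and H2-DMB1, part of the peptide-loading chaperone, was at 9.53, 14.1 and 12.6 against 36.5, 39.6 and 17.1. In each of these 5 genes replicates 1 and 2 of the labelled tumors were far above the controls, while replicate 3 was the lowest of its group and lay close above the highest control. The summed level of the listed genes was 284, 675 and 497 in the controls and 2480.1, 2794 and 876 in the labelled tumors. Without replicate 2 labelled sh-B7-H3 (1), 4 of 7 tested members rose. None was called without sh-NC replicate 1, without sh-NC replicate 3 or without labelled replicate 1, 2 were called without sh-NC replicate 2, and 7 of 7 without labelled replicate 3.

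To show the sequence upstream of these genes, 250 bases upstream of the start are given for the 2 class II genes with a promoter in the RefSeq table among those named above (build GRCm38.p6, the assembly also called mm10, written 5′ to 3′ on the gene's strand). Capitals mark ATTGG, the core of the Y box to which the factor NF-Y binds in class II promoters. H2-Aa lies at chr17:34287824-34288073 on the minus strand and H2-DMb1 at chr17:34152941-34153190 on the plus strand.
H2-Aa: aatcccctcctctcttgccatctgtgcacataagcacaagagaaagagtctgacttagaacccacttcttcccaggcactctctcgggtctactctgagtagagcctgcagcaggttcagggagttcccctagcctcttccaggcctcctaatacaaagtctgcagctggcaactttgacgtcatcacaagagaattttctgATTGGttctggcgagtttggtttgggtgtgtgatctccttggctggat
H2-DMb1: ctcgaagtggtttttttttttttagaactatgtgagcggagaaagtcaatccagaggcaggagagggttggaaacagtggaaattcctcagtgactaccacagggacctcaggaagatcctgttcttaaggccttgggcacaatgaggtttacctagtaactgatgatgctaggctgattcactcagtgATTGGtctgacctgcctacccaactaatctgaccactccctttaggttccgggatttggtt
Read on both strands, ATTGG stood in these 250 bases for 3 of the 3 called class II genes with a promoter in the table, against 37.5% of all 27025 genes. CD74, H2-AB1 and CIITA had no promoter in the table and were not searched. A match is a description of the letters only.

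Genes of the wider IFN-γ response followed the same libraries. Of 32 tested genes 12 (37.5%) rose, against 12.8% of all genes tested, and none fell, with a median log2 fold change of 0.94. CXCL9, a chemokine that draws CXCR3-bearing T cells, was at 3.99, 4.88 and 2.54 in the sh-NC tumors and at 27.1, 37.6 and 8.91 in the tumors labelled sh-B7-H3 (1) (log2 fold change 2.23 ± 0.48, SE, adjusted p = 0.0223). UBD, a ubiquitin-like modifier, was at 0.194, 0.278 and 0.256 against 5.55, 7.45 and 1.37 (log2 fold change 2.03 ± 0.43, SE, adjusted p = 0.0213), and it was tested through the labelled tumors alone. IIGP1 and TGTP2, GTPases that act against intracellular parasites, were at 34, 23.6 and 19.9 against 111, 118 and 40.1 and at 19.6, 14.7 and 13.5 against 74.4, 89.9 and 23.6. CFB, complement factor B, was at 7.84, 5.92 and 6.5 against 39, 31.6 and 14. Again replicate 3 was the lowest of the labelled tumors for each of these genes and yet above the controls. IRGM1, an immunity-related GTPase, was at 62.5, 55.2 and 51.5 against 119, 134 and 61.4. Over the whole list the summed level was 503, 449 and 449 in the controls and 1119.8, 1252 and 516 in the labelled tumors. Without labelled replicate 2, 8 rose and 1 fell among 31 tested. No gene was called without sh-NC replicate 3 or without labelled replicate 1, 3 were called without sh-NC replicate 1, 1 without sh-NC replicate 2, and 24 without labelled replicate 3.

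In the lists of the IFN-γ receptor, MHC class I and the type I interferon response, 18.2%, 18.2% and 11.1% of the tested genes rose. These shares are near the 12.8% of all genes, so nothing is read from the counts. IFNGR2, the signaling chain of the receptor, rose from 36.5, 41.4 and 46.2 to 55, 55.3 and 53.2, and JAK2, its kinase, rose from 8.33, 9.56 and 7.63 to 15.8, 12.1 and 16, the 2 called genes of 11 tested. IFNGR1, the binding chain, was at 55.7, 59.4 and 70.6 against 78.1, 73.1 and 73.3 (log2 fold change 0.28, adjusted p = 0.109). Of 22 class I genes, 4 rose and none fell, with a median log2 fold change of 0.36. They were PSMB9, a subunit of the immunoproteasome, ERAP1, the peptidase that trims peptides in the endoplasmic reticulum, TAPBPL, a tapasin homolog, and PSME1, a proteasome activator. PSMB9 was at 11.5, 13.5 and 12.9 against 29.4, 36.2 and 16.8, and ERAP1 was at 11.5, 11.4 and 9.14 against 22.8, 20.9 and 20.01. The light chain B2M was at 3817, 3106 and 3972 against 5601, 3962 and 5108 (log2 fold change 0.42, adjusted p = 0.178), with the second labelled tumor inside the control range. With labelled replicate 3 left out, 11 of 21 tested class I genes rose, and 1 of 22 without labelled replicate 1. Type I interferon genes had a median of 0.01, and 3 of 27 rose, OASL2, ISG20 and SAMD9L. OASL2, an antiviral protein of the OAS family, was at 29.6, 22.2 and 17.4 against 52.2, 44 and 42.6. BST2 (tetherin) and IRF7, the most abundant members, overlapped between the groups, with BST2 at 255, 266 and 225 against 162, 250.2 and 103. The type I counts without labelled replicate 2 were 3 higher and 2 lower, and BST2 was called lower (log2 fold change −0.93, adjusted p = 0.0155). No type I gene was called without sh-NC replicate 2 or labelled replicate 1, against 1 without sh-NC replicate 3 and 5 without sh-NC replicate 1, and neither IFNGR2 nor JAK2 was called without sh-NC replicate 1, sh-NC replicate 3 or labelled replicate 1. In the receptor list 1 gene rose without sh-NC replicate 2 and 4 without labelled replicate 2.

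**Figure D2:**
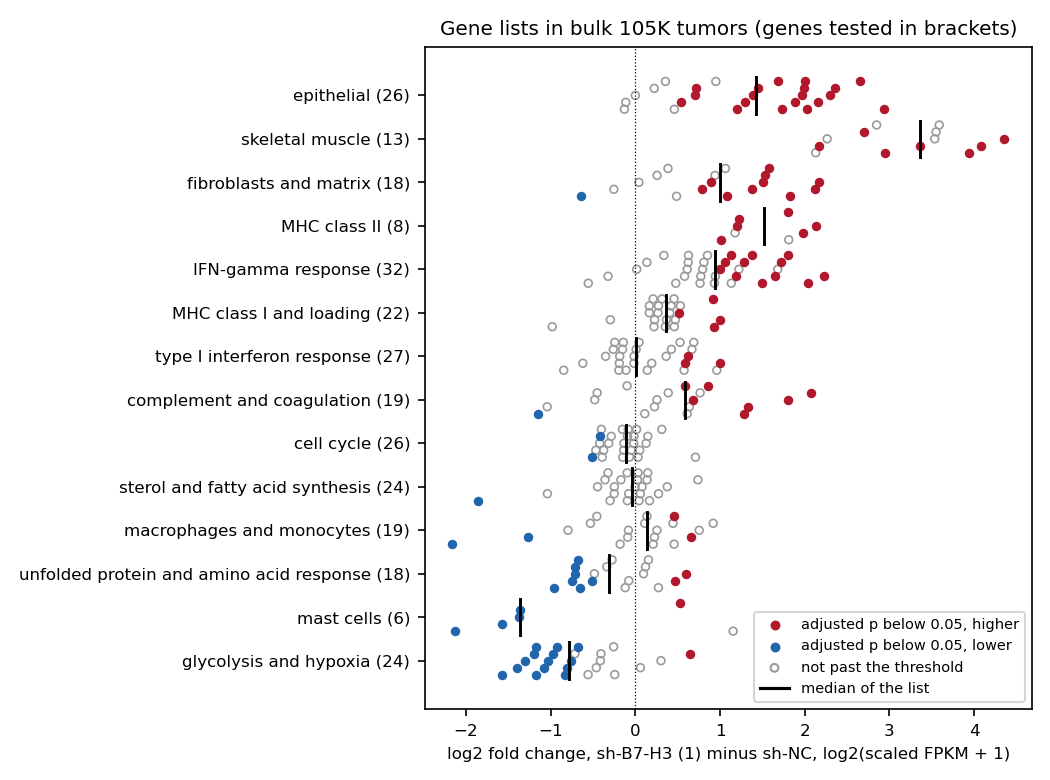
Log2 fold change (labelled sh-B7-H3 (1) against sh-NC bulk tumors, scaled FPKM + 1) of each tested gene in 14 gene lists; each dot is a gene, red where it was higher and blue where it was lower at an adjusted p under 0.05, open grey otherwise, and the black bar is the list's median. The medians run from 3.37 for skeletal muscle and 1.52 for MHC class II to −0.78 for glycolysis and hypoxia and −1.36 for mast cells. Those of muscle and mast cells depend on the level filter. Several muscle genes passed it through the labelled tumors alone, and 4 mast cell genes through the controls alone.

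Most T cell genes were too low for a test in the bulk tumors. Only 4 of 22 listed T cell genes were tested, and all 4 rose, though CD3E and CD3G passed the level filter through the labelled tumors alone, so that nothing is read from the count. CD3E, a chain of the T cell receptor complex, was at 0.34, 0.583 and 0.261 in the sh-NC tumors and at 5.99, 4.26 and 1.78 in the tumors labelled sh-B7-H3 (1) (log2 fold change 1.75 ± 0.32, SE, adjusted p = 0.0133). CD3G, another chain, was at 0.434, 0.447 and 0.229 against 5.12, 4.55 and 1.77 (log2 fold change 1.74 ± 0.29, SE, adjusted p = 0.0104). THY1, present on T cells and on fibroblasts, and TCF7, a transcription factor of naive and memory-like T cells, rose as well, with THY1 at 13.4, 16.7 and 15 against 36.8, 28 and 23 and TCF7 at 8.63, 15 and 12.2 against 19.8, 19 and 18.2. TCF7 was not particular to T cells here, since the isolated tumor cells held 16.8, 12.2 and 12.9 for sh-NC and 12, 13.8 and 13.6 for sh-B7-H3 (1). The sum over the list was 26.2, 36.2 and 31.5 in the controls and 84.9, 76.2 and 49.97 in the labelled tumors. THY1 and TCF7 made up most of it in the controls, and over the other 20 genes the sum was 4.24, 4.46 and 4.27 against 28.4, 29.3 and 8.8. Neither sum overlapped between the groups. Without labelled replicate 2, 2 members were tested and both rose. No member was called without sh-NC replicate 3 or without labelled replicate 1, and 2 were called without sh-NC replicate 1 and 1 without labelled replicate 3.

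The lineage and effector genes of T cells mostly stayed under the filter, and their values are given without a test. CD8A was at 0.0673, 0.236 and 0.0322 in the sh-NC tumors and at 1.5, 1.97 and 0.501 in the tumors labelled sh-B7-H3 (1), and CD4 was at 0.369, 0.535 and 0.47 against 1.28, 1.22 and 0.541. For both, each labelled tumor lay above each control. GZMK, a granzyme of memory-like cells, was at 0.0605, 0.139 and 0 against 1.86, 2.01 and 0.381, while GZMB, the granzyme of cytotoxic effectors, was at 0.407, 0.373 and 0.286 against 0.467, 0.749 and 0.0427 with ranges that overlapped. PRF1, the pore-forming perforin, was at 0.0766, 0.0439 and 0.101 against 0.212, 0.233 and 0.181, CST7 was at 0.318, 0.312 and 0.359 against 0.782, 1.18 and 0.429, and NKG7, a granule protein, was at 0.525, 0.535 and 0.693 against 3.09, 6.003 and 0.643. Replicate 2 was the highest labelled tumor for these granule genes, and replicate 3 was the lowest. IFNG was listed at 0 in 2 controls and 1 labelled tumor and reached 0.174 at most. PDCD1, which encodes PD-1, was at 0.103, 0.141 and 0.244 against 0.859, 1.73 and 0.259, and FOXP3, the factor of regulatory T cells, was at 0.112, 0.163 and 0.0803 against 0.355, 0.326 and 0.224. TNF was at 0.514, 0.672 and 0.807 against 0.753, 1.05 and 0.717. None of 12 listed B and plasma cell genes in the table passed the filter on low values.

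Of 9 tested checkpoint and regulatory genes, 3 rose and 1 fell, though 2 of the rises, IL2RA and IKZF2, were tested through the labelled tumors alone. LAG3, an inhibitory receptor that binds class II molecules, was at 0.611, 1.08 and 0.987 against 1.89, 2.97 and 1.4 (log2 fold change 0.68, adjusted p = 0.0561). ENTPD1 (CD39) was at 3.67, 4.85 and 5.25 against 6.43, 7.11 and 4.16 (0.29, adjusted p = 0.313) and CD38 at 3.6, 3.64 and 6.35 against 3.13, 3.99 and 2.66 (−0.35, adjusted p = 0.257), each with ranges that overlapped. IL2RA, the high-affinity chain of the interleukin-2 receptor, was at 0.639, 0.494 and 0.354 against 4.35, 2.64 and 1.18, and IKZF2, a factor of regulatory T cells, was at 0.541, 0.277 and 0.415 against 1.23, 1.09 and 1.07. KLRD1, the NK receptor chain CD94, was at 0.536, 0.859 and 0.353 against 2.31, 2.31 and 1.69 and was the 1 called of 5 tested cytotoxic genes. It too was tested through the labelled tumors alone, and no gene of that list was called without labelled replicate 1 or 2. Both larger changes in the checkpoint list were shared with the isolated tumor cells. IL18R1, the interleukin-18 receptor, rose from 4.55, 4.34 and 2.39 to 34.2, 19.7 and 36.9 in bulk, with a log2 fold change of 2.7 in bulk and 3.08 in the sorted cells. TNFRSF9 (4-1BB) fell from 44.1, 24.1 and 38.4 to 7.5, 6.7 and 9.71, with −2.0 and −2.06. In this list 1 gene rose without sh-NC replicate 2, sh-NC replicate 3, labelled replicate 1 or labelled replicate 2, and the fall was called in each case.

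Calls among myeloid genes went both ways. Of 19 tested macrophage and monocyte genes, 2 rose and 2 fell, and without labelled replicate 2 the counts were 2 and 4. The shares, 10.5% each, are near the 12.8% and 8.52% of all genes, so nothing is read from the counts. ARG1, the arginase of alternatively activated macrophages, was at 35, 24.7 and 48.7 in the sh-NC tumors and at 3.46, 9.02 and 10.6 in the tumors labelled sh-B7-H3 (1) (log2 fold change −2.16 ± 0.39, SE, adjusted p = 0.0131), a call that was lost without sh-NC replicate 3. MSR1, a scavenger receptor, was at 13.7, 12.2 and 18.4 against 4.6, 8.24 and 4.17, and PF4, a chemokine of platelets and of some macrophages, was at 42.5, 33 and 67.7 against 5.49, 12.7 and 6.58 (log2 fold change −2.41 ± 0.34, SE, adjusted p = 0.00631). CD68 and CD14, a lysosomal protein and a lipopolysaccharide co-receptor of monocytes and macrophages, rose, with CD68 at 63.6, 71.2 and 79.6 against 118, 97.4 and 124. Neither rise was particular to host cells, since both were called higher in the isolated tumor cells too. There the log2 fold change of CD68 was 1.08 and that of CD14 1.53, with CD14 at 18.7, 26.7 and 33 against 86.7, 68.8 and 72.3. The pan-macrophage marker ADGRE1 (F4/80) was at 8.71, 11.5 and 12.7 against 13.6, 17.3 and 7.28 (log2 fold change 0.14 ± 0.29, SE, adjusted p = 0.751), and ITGAM (CD11b) was at 9.07, 9.45 and 10.8 against 9.39, 10.4 and 6.22 (−0.18, adjusted p = 0.489). ITGAX (CD11c) was at 5.09, 6.4 and 5.51 against 10.6, 12.4 and 6.89 (0.69, adjusted p = 0.051), with every labelled tumor above the controls. CCL22, a chemokine of dendritic cells, was the 1 called of 7 tested dendritic cell genes, at 0.728, 0.505 and 0.756 against 1.38, 2.73 and 1.63, again tested through the labelled tumors alone, and none was called without sh-NC replicate 1, sh-NC replicate 3, labelled replicate 1 or labelled replicate 2. In the macrophage list no gene rose without sh-NC replicate 2 or labelled replicate 1, and no gene fell without sh-NC replicate 3. For the abundant macrophage genes APOE and LYZ2 the levels were 418, 709 and 809 against 1404, 1380.2 and 841, and 296, 423 and 631 against 232, 446 and 297.

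Of 7 tested neutrophil genes 3 fell and 1 rose, with a median log2 fold change of −0.21. S100A8 and S100A9, the calprotectin subunits of neutrophils, were at 2.29, 5.48 and 6.05 against 1.18, 1.06 and 0.903 and at 2.24, 3.32 and 3.83 against 0.824, 0.872 and 0.177, and CLEC4D, a C-type lectin of myeloid cells, was at 2.51, 2.76 and 3.51 against 1.04, 0.886 and 1.04. These 3 fell, S100A9 being tested through the controls alone, and LTF, described above, rose. LTF was not particular to neutrophils here, since it also rose in the isolated tumor cells, from 37.3, 46.7 and 28.8 to 378, 278 and 302. Without sh-NC replicate 2 or 3, 1 neutrophil gene fell. The neutrophil surface marker LY6G was at or under 0.066 in all 6 tumors. Of 6 tested mast cell genes 4 fell and 1 rose. TPSB2, mast cell tryptase, was at 2.97, 3.54 and 5.77 against 0.0494, 0.3995 and 0 (log2 fold change −2.13 ± 0.23, SE, adjusted p = 0.00308). CPA3, mast cell carboxypeptidase, was at 1.5, 1.63 and 2.21 against 0.0349, 0.188 and 0 (log2 fold change −1.37 ± 0.14, SE, adjusted p = 0.00308), CMA1, a chymase, at 1.72, 2.25 and 3.33 against 0.0493, 0.31 and 0.0631, and MCPT4, another chymase, at 1.83, 1.4 and 3.96 against 0.278, 0.549 and 0. All 4 proteases were at or near 0 in the labelled tumors, and the highest labelled value of each, always that of replicate 2, was below the lowest control. They passed the filter through the controls alone, and without any 1 control library they were not tested, so nothing is read from the count. MS4A2, a chain of the IgE receptor, did not follow them, at 10.1, 12.3 and 5.16 against 13.2, 12.5 and 51.1. The member that rose, named after its values were seen, was KIT, the stem cell factor receptor, at 0.989, 0.768 and 0.96 against 1.53, 2.09 and 1.66, a receptor that cells other than mast cells also carry. It was tested through the labelled tumors alone, and it was not called without any 1 of the 6 libraries.

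More matrix genes were higher than lower in the tumors labelled sh-B7-H3 (1). Of 18 tested fibroblast and matrix genes 10 rose and 1 fell, with a median log2 fold change of 1.00, and the counts were the same without labelled replicate 2. The shares were 55.6% and 5.56%, against 12.8% and 8.52% of all genes. COL1A1, the main chain of fibrillar collagen I, was at 32, 64.2 and 31 in the sh-NC tumors and at 271, 198 and 113 in the tumors labelled sh-B7-H3 (1) (log2 fold change 2.16 ± 0.38, SE, adjusted p = 0.0121). COL1A2 was at 20.6, 44.2 and 23.1 against 185, 139 and 73 and COL3A1 at 19.4, 36.6 and 22.4 against 126, 104 and 59.7. LUM, the proteoglycan lumican, was at 2.48, 3.53 and 2.9 against 16.1, 11.7 and 6.53 (log2 fold change 1.58 ± 0.29, SE, adjusted p = 0.0131), and LOX, which crosslinks collagen, was at 2.15, 1.9 and 2.37 against 7.26, 9.89 and 7.22. For the collagens and LUM, replicate 1 was the highest and replicate 3 the lowest labelled tumor, and none overlapped a control. The member that fell was FN1, the most abundant of the list, and its fall was called with labelled replicate 2 left out but not with any other single library left out. SPARC, the next in level, was at 526, 512 and 658 against 523, 592 and 338. Without sh-NC replicate 3 the count of rises was 2, without sh-NC replicate 1 it was 6, and without labelled replicate 1 it was 4. LOXL2, a second crosslinking enzyme that is not on the list, was at 4.1, 4.17 and 3.16 against 18.6, 16.6 and 19.7. Among 21 tested TGF-β pathway genes 6 rose and 2 fell (28.6% and 9.52%, against 12.8% and 8.52% of all genes). LTBP2, a matrix protein related to the TGF-β binding proteins, was at 0.935, 1.82 and 0.634 against 7.92, 7.87 and 4.17, PMEPA1 at 79.6, 76.5 and 79.1 against 139, 159 and 115, and INHBA, the activin subunit, at 2.48, 1.6 and 1.8 against 4.78, 4.3 and 3.43. Among the 2 that fell was CTGF, at 333, 397 and 481 against 272, 276 and 256. Without labelled replicate 1, a single gene of this list rose and none fell, and without labelled replicate 2 the counts were 6 and 3.

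Genes of muscle, fat, skin, vessels and blood and Y-linked genes were examined as well. Skeletal muscle genes had the largest median of the lists tested. Of 16 listed, 13 were tested and 7 rose (53.8%, against 12.8% of all genes), with a median log2 fold change of 3.37. For 3 of the 7, CKM, MYH1 and MB, no control reached the filter. With any 1 labelled library left out, only 6 were tested, so the rest had passed the filter through the labelled tumors alone. Nothing is therefore read from that median or share. Of the 3 genes at 1 or more in all 6 libraries, 2 rose, and their median was 2.95. TNNT3, fast troponin T, was at 0.0914, 1.96 and 0.225 in the sh-NC tumors and at 4.75, 135 and 42.5 in the tumors labelled sh-B7-H3 (1) (log2 fold change 4.36 ± 1.07, SE, adjusted p = 0.0319), and CKM, muscle creatine kinase, was at 0.0586, 0.402 and 0.0386 against 2.56, 78.3 and 18.7 (log2 fold change 3.94 ± 0.99, SE, adjusted p = 0.034). Replicate 2 labelled sh-B7-H3 (1) held by far the most muscle RNA. Over the list, the sum was 7.09, 30.6 and 9.13 in the controls and 51.8, 968 and 296 in the labelled tumors. The isolated tumor cells held muscle RNA too, with a sum of 101, 77.5 and 136 for sh-NC, above the bulk controls. For sh-B7-H3 (1) their sum was 47.8, 117 and 65.6, and the source of this RNA was not tested. MYL1, a myosin light chain, was at 0.464, 3.32 and 1.07 against 10.3, 73.6 and 28.8. Without labelled replicate 2, 5 of 6 tested rose and TNNT3 had a log2 fold change of 3.32. None was called without sh-NC replicate 3 or without labelled replicate 3, 1 without sh-NC replicate 1 and 2 without sh-NC replicate 2. Adipocyte genes were also highest in labelled replicate 2, with a sum of 50.9, 138 and 122 in the controls and 91.1, 607 and 26.6 in the labelled tumors. None of 10 was called, with 1 fall without labelled replicate 2. Epidermal genes rose in 2 of 3 tested, KRT14 at 1.92, 3.75 and 1.45 against 4.44, 11.2 and 13.7 and DSG3 at 0.297, 0.237 and 0.19 against 2.24, 1.83 and 4.29, but both are also made by other epithelia, DSG3 was tested through the labelled tumors alone, and neither was called without labelled replicate 3. With labelled replicate 2 left out, 1 of 2 tested rose. The median over endothelial genes was −0.03 on the log2 scale. CLDN5, the tight junction claudin of vessels, fell from 4.36, 7.34 and 9.49 to 2.34, 3.72 and 0.967, the 1 call of 14, which was lost without sh-NC replicate 2, sh-NC replicate 3, labelled replicate 1 or labelled replicate 3, and PECAM1 was at 6.55, 8.9 and 11.9 against 10.7, 11.7 and 7.89 (0.15, adjusted p = 0.629). Red cell globins spread widely, with HBA-A1 at 42.3, 28.1 and 141 against 12.4, 45.3 and 56.4, and none was called. The Y-linked genes EIF2S3Y and DDX3Y rose, from 1.67, 1.91 and 1.75 to 3.35, 2.9 and 2.82 and from 0.974, 0.978 and 1.19 to 1.63, 2.4 and 1.81, and the sum of the Y-linked list was 3.12 to 3.63 in the controls, 5.12 to 6.26 in the labelled tumors and 0.277 to 0.887 in the isolated tumor cells of the same labels. Neither Y-linked gene was called without sh-NC replicate 1, sh-NC replicate 3 or labelled replicate 1. The muscle and Y-linked sums, like the collagen, CD3E and class II values, were higher in every labelled tumor than in every control. The same held for 2884 of the 11800 genes tested. Among the labelled tumors the order differed, since muscle RNA was lowest in replicate 1 and the other values in replicate 3. The part of muscle and other host tissue in those results was not tested.

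**Figure D3:**
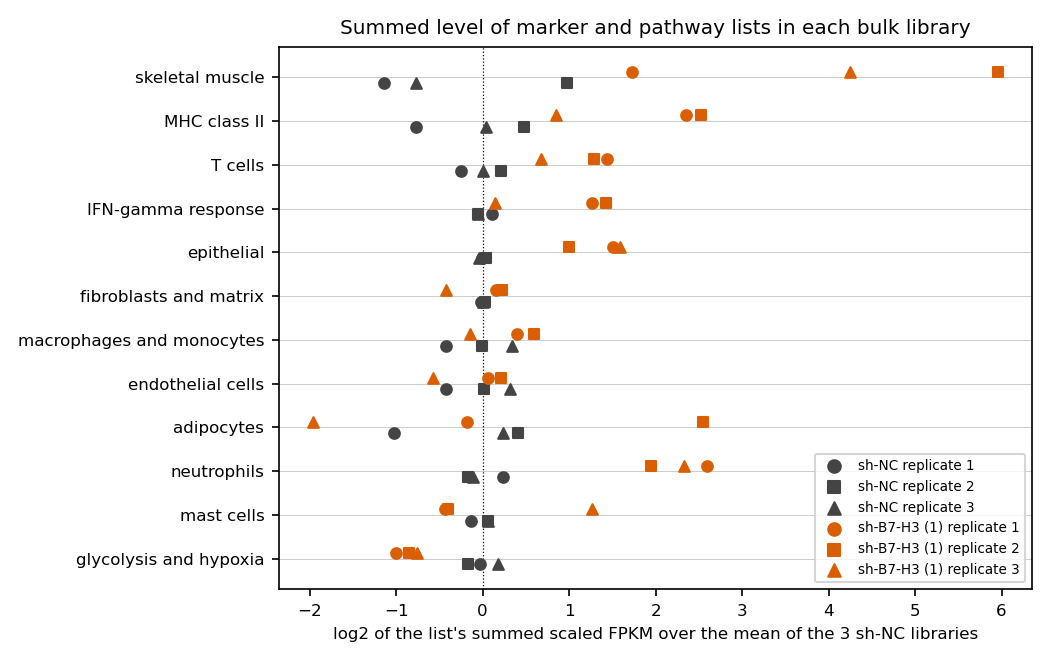
Summed scaled FPKM of 12 gene lists in each of the 6 bulk tumors, as log2 of the ratio to the mean of the 3 sh-NC tumors; each point is a library marked with its replicate number. Replicate 2 labelled sh-B7-H3 (1) is highest for skeletal muscle, with a sum of 968, and for adipocytes, with 607, and replicate 3 is the lowest labelled tumor for MHC class II, with 876, and for the IFN-γ response, with 516.

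Many genes of glycolysis and of the hypoxia response were lower in the tumors labelled sh-B7-H3 (1). Glycolysis turns glucose into pyruvate, and the factor HIF-1 raises its enzymes when oxygen is short. Of 24 tested genes 14 fell and 1 rose, where 8.52% of all genes tested fell, with a median log2 fold change of −0.78. SLC2A1, the glucose transporter GLUT1, was at 92.2, 88.4 and 121 in the sh-NC tumors and at 30.7, 35.5 and 47.2 in the tumors labelled sh-B7-H3 (1) (log2 fold change −1.39 ± 0.19, SE, adjusted p = 0.00526). PKM, pyruvate kinase of muscle and tumors, was at 1152, 888 and 1181 against 431, 502 and 469 (log2 fold change −1.19 ± 0.15, SE, adjusted p = 0.00457), and ALDOA, an aldolase, was at 1064, 996 and 1251 against 506, 683 and 509.7. NDRG1, a hypoxia-induced gene, was at 351, 332 and 507 against 130.4, 174 and 173 (log2 fold change −1.3 ± 0.20, SE, adjusted p = 0.00743). The labelled tumors were below the controls in all 4 genes. ENO1, enolase, had the largest fall, from 125, 132 and 170.5 to 44.5, 92.1 and 24.6, with replicate 2 between its group and the controls. GAPDH was at 915, 794 and 970.3 against 665, 531 and 859.6, with ranges that overlapped. The gene that rose, named after its values were seen, was PFKFB3, which makes the activator of phosphofructokinase, at 9.89, 7.26 and 9.36 against 16.3, 12.6 and 14.1. Summed over the list, the level was 6293, 5733 and 7242 in the controls and 3205, 3547 and 3796 in the labelled tumors. Without labelled replicate 2, 14 fell and 2 rose, and over all libraries left out in turn 9 to 15 fell, the fewest without labelled replicate 1, where ALDOA and ENO1 were not called.

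A pair of these genes is shown with 250 bases upstream of a start, again from RefSeq on GRCm38.p6, because the core of the hypoxia response element, ACGTG, lies in them (capitals, either strand). Slc2a1 lies at chr4:119108495-119108744 and the second annotated start of Pkm at chr9:59656977-59657226, both on the plus strand. The first start of Pkm, chr9:59656326-59656575, held no match.
Slc2a1: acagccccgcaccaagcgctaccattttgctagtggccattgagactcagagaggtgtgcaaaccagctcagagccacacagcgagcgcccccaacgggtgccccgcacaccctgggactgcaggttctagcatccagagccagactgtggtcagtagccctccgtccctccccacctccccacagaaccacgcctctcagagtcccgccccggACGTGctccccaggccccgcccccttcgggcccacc
Pkm: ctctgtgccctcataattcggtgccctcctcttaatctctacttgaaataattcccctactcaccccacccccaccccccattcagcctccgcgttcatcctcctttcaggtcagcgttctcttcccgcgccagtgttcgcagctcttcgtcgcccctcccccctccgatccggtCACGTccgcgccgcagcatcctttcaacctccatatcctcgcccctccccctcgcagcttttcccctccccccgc
Of the 14 glycolysis and hypoxia genes that fell, 13 had a promoter in the table and 8 of them held ACGTG, against 18.5% of all genes. None of the 3 called class II genes held it, but 3 genes are too few for a contrast. ATTGG was present in 5 of the 13, against 37.5% of all genes. A gene was counted if any of its annotated starts matched, and the 27025 genes were not limited to those tested. Here too a match is a description of the letters only.

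Other metabolic lists gave fewer calls. Of 18 genes of the unfolded protein and amino acid response, 7 fell and 2 rose (38.9% and 11.1%, against 8.52% and 12.8% of all genes). The median log2 fold change was −0.31, and without labelled replicate 2 the counts were 8 and 3. CHAC1, a glutathione-degrading enzyme, was at 20.3, 19 and 25.7 against 8.53, 15 and 9.23, TRIB3, a pseudokinase, at 49.8, 61.2 and 67.4 against 33, 42.6 and 29.7, and ASNS, asparagine synthetase, at 47.9, 47.3 and 55.9 against 27.2, 28.9 and 35.4, all of which are targets of the stress factor ATF4. PSAT1, of serine synthesis, was at 86.7, 114 and 131 against 57.3, 64.7 and 77.4. None of the 7 was called without sh-NC replicate 3 or without labelled replicate 1, and 2 fell without sh-NC replicate 2 and 4 without labelled replicate 3. Of 23 mTORC1 and lysosome genes 3 fell and 2 rose. The shares, 13.0% and 8.70%, are near the 8.52% and 12.8% of all genes, so nothing is read from the counts. GPNMB, a glycoprotein of lysosomes, was at 72.9, 73.7 and 71.8 against 25.2, 44.8 and 23.5 (log2 fold change −1.26 ± 0.23, SE, adjusted p = 0.0132). EIF4EBP1, the repressor of translation that mTORC1 phosphorylates, was at 113, 115 and 139 against 56.1, 74 and 61.9, and SQSTM1, the autophagy receptor p62, was at 826, 800.1 and 934 against 413, 534 and 456. CTSK, a collagen-degrading protease, rose from 2.75, 5.36 and 3.75 to 14.4, 12.1 and 6.11. Neither rise of the mTORC1 list was called without labelled replicate 1 or without any 1 control, and 1 gene fell without labelled replicate 1 and 2 without sh-NC replicate 3, while 4 rose and 4 fell without labelled replicate 2. Of 24 tested sterol and fatty acid genes 1 fell (4.17%, against 8.52% of all genes), and without labelled replicate 2, 6 fell and 1 rose. Of 26 cell cycle genes 2 fell (7.69%, against 8.52% of all genes), so nothing is read from the count. They were CDC20 at 15.2, 13.3 and 16.3 against 8.45, 11.2 and 11.1 and PCNA at 155, 177 and 188 against 119, 129 and 140.3. The proliferation marker MKI67 was at 16.1, 15.6 and 12.1 against 20.3, 20.7 and 34.2 (log2 fold change 0.71, adjusted p = 0.0566). When labelled replicate 2 was left out, MKI67 was called higher (0.82, adjusted p = 0.0337), and the cell cycle counts were 1 higher and 3 lower. YY2, a zinc finger transcription factor, was under the filter, at 0.785, 0.685 and 1.09 against 0.965, 1.15 and 0.921. In the renal tubule list UMOD, uromodulin, rose from 11, 14.6 and 7.66 to 181, 113 and 22.4 and SCNN1A, a chain of the epithelial sodium channel, from 2.81, 3.02 and 1.66 to 9.23, 5.97 and 8.8, the 2 calls of 9, with 5 rises without labelled replicate 2 and 1 without sh-NC replicate 1, sh-NC replicate 3 or labelled replicate 1. No cell cycle gene was called without sh-NC replicate 2, sh-NC replicate 3 or labelled replicate 1.

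Secreted signals of inflammation were mixed. Of 27 tested chemokine genes 6 rose and 2 fell (22.2% and 7.41%, against 12.8% and 8.52% of all genes). Without labelled replicate 2 the chemokine counts were 5 and 7. CXCL16, a chemokine that is also a membrane protein, was at 64.8, 72.7 and 77.3 in the sh-NC tumors and 156, 141 and 130.4 in the tumors labelled sh-B7-H3 (1) (log2 fold change 0.98 ± 0.11, SE, adjusted p = 0.00345), and CXCL1, which attracts neutrophils, was at 1.91, 2.18 and 1.38 against 6.69, 2.95 and 9.61. CXCR4, the receptor of CXCL12, fell from 27, 19.9 and 44.4 to 12, 16.6 and 6.05. Of 19 complement and coagulation genes 7 rose and 1 fell (36.8% and 5.26%). C3, the central complement protein, was at 112, 93.1 and 111 against 314, 229 and 259 (log2 fold change 1.33 ± 0.14, SE, adjusted p = 0.00308), SERPING1, the C1 inhibitor, at 7.72, 10.2 and 10.7 against 35.3, 33 and 12.5, and F3, tissue factor, at 4.07, 3.11 and 2.57 against 18.6, 10.8 and 22.9 (log2 fold change 2.07 ± 0.27, SE, adjusted p = 0.00478). Without labelled replicate 2, 5 rose and 3 fell in that list. Of 18 TNF and NF-κB genes 3 rose (16.7%, against 12.8% of all genes), so nothing is read from the count. They were CXCL1, VCAM1 and NFKBIA, with VCAM1, an adhesion molecule for leukocytes, at 7.26, 10.8 and 7.76 against 15, 13 and 15. Without labelled replicate 2, 4 rose and 1 fell. Of 19 immediate-early and heat shock genes 5 fell and 1 rose (26.3% and 5.26%, against 8.52% and 12.8% of all genes). FOSB, a subunit of AP-1 that was tested through the controls alone, was at 1.34, 1.8 and 2.23 against 0.318, 0.411 and 0.503, DUSP1, a MAP kinase phosphatase, at 13.6, 11.5 and 20.6 against 7.78, 9.67 and 6.16, and IER3 at 85, 81.5 and 132 against 59.1, 54.6 and 56.1, while EGR2 was at 2.61, 2.87 and 3.19 against 4.84, 4.81 and 5.36. These 4 lists were sensitive to single libraries. Without labelled replicate 1, for example, 2 chemokine genes rose and 1 fell, 2 complement genes rose and none fell, no NF-κB gene rose, and 1 immediate-early gene fell. Without sh-NC replicates 1, 2 and 3 the rises numbered 2, 4 and 2 for chemokines, 4, 2 and 3 for complement and 0, 1 and 0 for NF-κB, and the falls 0, 1 and 1 for immediate-early genes.

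The bulk effect was then set beside the effect in isolated tumor cells of the same labels, which came from libraries other than those of the bulk tumors. Of 11007 genes tested in both, 2363 were called in bulk and 1433 in the sorted cells, and 877 in both, which was 37.1% of the bulk calls and 61.2% of the sorted calls. Of these, 875 had the same direction, 645 higher and 230 lower. The difference of the effects was tested directly in a fit of the 12 libraries, and 56 of 12062 genes (0.464%) passed, 26 with a larger value in bulk and 30 with a smaller one. Without any 1 of the 12 libraries 12 to 72 genes passed, with the fewest without bulk sh-NC replicate 3.

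The epithelial genes were higher in the sorted cells as well, where 21 of 26 were called. Their median log2 fold change over 26 genes was 1.42 in bulk and 1.80 in the sorted cells, and no member had a difference that passed. For EPCAM the values were 2.65 and 2.73, for LCN2 2.93 and 3.28, for MUC1 2.95 and 2.64 and for PIGR 3.39 and 3.41. The glycolysis list had medians of −0.76 and −0.50 over 23 genes, with no difference that passed. VIM had −1.25 in bulk and −1.6 in the sorted cells, and S100A4 had −2.07 and −2.26.

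The class II genes rose more in the sorted cells than in the bulk tumors. Over 8 genes the median log2 fold change was 1.52 in bulk and 4.82 in the sorted cells, and the difference passed for 6. CD74 in the sorted cells was at 22.3, 8.3 and 7.96 for sh-NC and at 1988, 1114 and 1223 for sh-B7-H3 (1), so that its effect there was 6.8 and the difference −4.67 (adjusted p = 0.0192). H2-AA, with a difference of −4.64, and H2-AB1, with −4.05, had the same form. The bulk controls thus held 152 to 336 scaled FPKM of CD74, more than the sorted controls. The IFN-γ list had medians of 0.94 in bulk and 2.43 in the sorted cells over 31 genes, but no member's difference passed. CTSS, the protease that trims the invariant chain, was at 126, 159.7 and 183 against 391, 379 and 232 in bulk and at 5.1, 6.13 and 5.69 against 117, 74.9 and 66.9 in the sorted cells, a difference of −2.61. IL1RN, the interleukin-1 receptor antagonist, and IGFBP3, a binding protein of insulin-like growth factors, were likewise raised more in the sorted cells, by differences of −1.97 and −2.19. In bulk, IGFBP3 was at 86.7, 96.3 and 123.4 against 155, 154 and 132, and in the sorted cells it was at 9.17, 12.9 and 8.39 against 84.8, 67.2 and 64.5.

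Some matrix genes had the opposite form. The fibroblast list had a median of 1.00 in bulk and −0.04 in the sorted cells over 16 genes, and the difference passed for 2, LOX and POSTN. POSTN, the matrix protein periostin, named after its values were seen, was at 40.1, 71.6 and 45.9 against 171, 143 and 129 in bulk and differed by 1.98. LOX in the sorted cells was at 2.42, 1.68 and 2.7 against 1.54, 1.5 and 2.13, a difference of 1.79 (adjusted p = 0.00854), and LOXL2 was at 2.32, 2.12 and 1.73 against 2.11, 3.43 and 2.5, a difference of 1.75. CDH11 differed by 2.16, at 0.393, 0.314 and 0.417 against 0.33, 0.221 and 0.356 in the sorted cells. COL1A1, at 2.16 in bulk and −0.12 in the sorted cells, did not pass (adjusted p = 0.106). The mast cell proteases were nearly absent from the sorted cells, with TPSB2 at 0.0286, 0 and 0.124 against 0, 0.0961 and 0, and their differences passed, −2.10 for TPSB2, −1.55 for CMA1 and −1.30 for CPA3. The muscle list had medians of 3.45 in bulk and −0.41 in the sorted cells over 12 genes, and no difference passed. The T cell genes CD3E and CD3G were at or under 0.158 and 0.221 in the 6 sorted libraries.

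**Figure D4:**
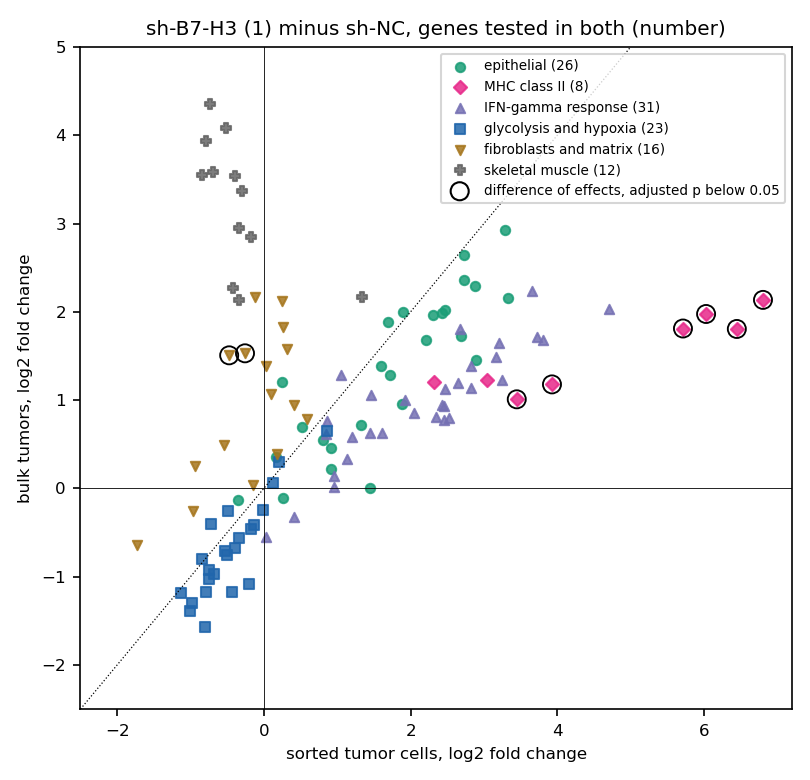
Log2 fold change (sh-B7-H3 (1) against sh-NC) in sorted tumor cells on the x axis and in bulk tumors on the y axis for the genes of 6 lists, one color per list; the dotted line marks equal effects, and a circle marks genes whose difference had an adjusted p under 0.05. Epithelial genes lie near the line, MHC class II genes lie far to the right of it, with CD74 at 6.80 and 2.14, and matrix genes lie above it, with COL1A1 at −0.12 and 2.16.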

How the data were processed

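RNA from 6 subcutaneous bulk tumors was sequenced, 3 per group, which the study's methods call biological samples. The labels name an Illumina stranded mRNA kit for the libraries, whereas the methods give another mRNA kit with oligo-dT capture and 75-cycle single-end reads. The authors mapped the reads to mm10 and deposited FPKM values for 24917 rows and 15 libraries, and the aligner is not given in the sources used here. From these, 26 rows with date-like symbols were left out, since a spreadsheet had replaced the gene names. The values were divided by a median-ratio factor per library, taken over 9872 genes with at least 1 FPKM in all 15 libraries (0.650 to 1.04 in bulk). Poly(A) selection does not capture mature microRNA, and the source of the MIR6236 signal was not tested.

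Genes with at least 1 scaled FPKM in at least 3 of the 6 libraries were tested in limma (version 3.58.1, under R 4.3.3), fitting the variance as a function of the mean, on log2 of scaled FPKM plus a pseudocount of 1, with Benjamini-Hochberg adjustment and a threshold of 0.05. The effect in bulk minus that in sorted tumor cells was an interaction term over 12 libraries. The fit was also run on simulated data with the same spread for every gene and both groups. The real libraries are less even, so nothing about these data is read from that check. FPKM keep no counts, so the absolute read depth behind a value is unknown. Relative depth, estimated from the spacing of low values, was 0.632 to 0.873 in the controls. In labelled replicates 1, 2 and 3 it was 0.603, 0.921 and 0.468. Genes at 1 scaled FPKM or more numbered 11438 to 12054 per library.

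The comparison, the gene lists and the rule for named genes were chosen with earlier results of these data known. The rule named CD276, the 10 largest and 10 smallest fold changes among called genes with a mean of at least 1 and no overlap, up to 4 called and 2 most abundant genes per list, immune and signaling genes that the study names, and the 10 smallest adjusted p values of either fit, and some of these genes are not reported here. Alternatives were the deposited scale, other scalings, pseudocounts, filters and thresholds, a replicate block and each library left out. The 2 alternatives on MIR6236 were chosen after seeing the data. Shared replicate numbers were not taken as a pairing of the tumors. Promoters came from RefSeq tables and were read with Python 3.11.15 and pandas 2.3.3.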

Additional observations from a re-analysis of the deposited data

Results flagged for a closer look

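The effect of the sh-B7-H3 (1) label differed between bulk tumors and isolated tumor cells, by an interaction term with an adjusted p under 0.05, for 19 of the genes that the naming rule gave, and for POSTN, whose value is given with the matrix genes. Each value is the log2 effect in bulk minus that in the sorted cells. Antigen presentation genes rose in both and more in the sorted cells, with −4.67 for CD74, −4.64 for H2-AA, −4.05 for H2-AB1 and −2.61 for CTSS. The same held for IGFBP3 at −2.19 and IL1RN at −1.97. NECTIN2 also rose in both, and its difference was −0.79. The matrix and mesenchymal genes CDH11, LOX and LOXL2 had differences of 2.16, 1.79 and 1.75. The mast cell proteases had −2.10 for TPSB2, −1.55 for CMA1 and −1.30 for CPA3, and the myeloid lectin CLEC4D had −0.96, all 4 of them close to 0 in the sorted libraries.

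Other genes also differed between bulk and sorted cells. AP1M2, an adaptor subunit of polarized epithelium, was at 0.231, 0.219 and 0.772 against 9.74, 6.66 and 7.37 in the sorted cells but at 0.209, 0.133 and 0.183 against 0.856, 0.436 and 0.0364 in bulk, a difference of −2.42. GPA33, a surface antigen of intestinal epithelium, was at 0.357, 0.538 and 0.259 against 8.08, 6.89 and 9.48 in the sorted cells and at 0.411, 0.84 and 0.221 against 0.822, 1.33 and 1.65 in bulk, a difference of −2.11. Both were under the bulk filter. KLK8, a secreted protease, differed by −1.40, with 0, 0.0586 and 0.115 against 1.52, 1.23 and 1.46 in the sorted cells and 2.04, 1.77 and 2.69 against 1.83, 1.48 and 1.8 in bulk. ADAM8, a membrane protease of leukocytes and tumor cells, fell in bulk from 9.07, 6.06 and 10.6 to 2.08, 3.42 and 2.34 and was at 0.407, 0.401 and 0.235 against 1.04, 1.07 and 0.961 in the sorted cells, a difference of −1.98. FOSB fell in bulk and rose in the sorted cells, with a difference of −2.25. Bulk and sorted libraries also differed in tissue handling and in their share of MIR6236, and the part of either in these differences was not tested.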

How the results depend on the processing

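Of the 2520 called genes, the alternatives tested 2138 to 2520, and none of those tested turned its direction. The groups of every called gene were without overlap, so leaving out libraries could not turn a sign, and nothing is read from this. The number of calls moved. Against 2520 genes, the FPKM as deposited gave 961 (675 higher and 286 lower), a threshold that also asked for a log2 fold change above 1 gave 606, and leaving out single libraries gave 546 to 3793. Both MIR6236 alternatives kept the count within 1.5 times, with 2236 genes for the 4 libraries with the least MIR6236 and 2109 with its share as a covariate. The replicate block gave 1413 genes (932 higher and 481 lower). Deviations of equally numbered tumors correlated at 0.412, 0.0014 and −0.461 over genes, and the closest pair across groups was sh-NC replicate 3 with labelled replicate 2 (0.593). With 3 libraries a group the deviations depend on each other, so these values cannot show whether equal numbers mark a pairing. For the effect difference, against 56 genes, the deposited FPKM gave 128, a pseudocount of 0.1 gave 25, a filter of 1 in all 12 libraries 13, the replicate block 1, and single libraries left out 12 to 72.

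The CD276 difference in bulk turned its sign, to 0.052 without labelled replicate 2 and to 0.083 with the 4 libraries that had the least MIR6236, and ran from −0.16 to 0.052 over single libraries left out. Other uncalled genes also turned. With single libraries left out, PECAM1 ran from −0.038 (without sh-NC replicate 1) to 0.35, ITGAM from −0.31 to 0.019 (without labelled replicate 3), and ADGRE1 from −0.11 (without labelled replicate 2) to 0.47. ADGRE1 was at −0.0063 without sh-NC replicate 1 and at −0.0021 with the 4 libraries that had the least MIR6236, and CDH1 was at 0.0296 under quantile normalization. The cause was not tested. With 3 tumors a group, low genes such as those of T cells rest on few reads, whose number is unknown. The estimated relative depth was lowest in labelled replicate 3, at 0.468, and its part in the low values there was not tested.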

Other observations

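The 2 libraries with the most MIR6236, sh-NC replicate 3 (79.7%) and replicate 2 labelled sh-B7-H3 (1) (74.4%), deviated from their group means in the same direction over genes (r = 0.593), while sh-NC replicate 1 deviated the opposite way from labelled replicate 2 (−0.589). The 4 other bulk libraries held 17.2% to 41.6%. With those 4 libraries alone, 18 of 25 epithelial genes rose and 12 of 24 glycolysis and hypoxia genes fell. None of 7 MHC class II genes and none of 6 skeletal muscle genes was called, and 2 IFN-γ response genes rose. The class II and muscle medians were still 1.52 and 2.34 on the log2 scale. Fewer libraries make a call harder, so the lost calls do not show a lost change. With the MIR6236 share as a covariate over all 6 libraries, 8 of 8 class II, 13 of 13 muscle and 15 of 32 IFN-γ response genes rose.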
